A study of Mus musculus with 7 samples.

Results

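The genes that carry the insulin signal in muscle, from the receptor to the protein that releases glucose transporters to the cell surface, were followed in C2C12 cells given exosomes. They were Insr, Irs1, Irs2, Pik3r1, Pik3ca, Akt1, Akt2, Gsk3b, Foxo1 and Tbc1d4. They were chosen by name and not by their values, though with earlier results of these data known. Every probe that the array annotation gives to one of these names was taken, which was 19 of the 39429 probes on the array, for 10 of its 31829 gene names. The cell line C2C12 derives from mouse muscle, and its myoblasts can be made to fuse into myotubes. One group of cultures (EXO-Post BSA, 4 arrays) was incubated for 24 h with exosomes from other C2C12 cultures that had received BSA, the carrier protein of the fatty acid. The other group (EXO-Post Palm, 3 arrays) was incubated for 24 h with exosomes from C2C12 cultures that had received palmitate at 0.5 mmol/l, a dose at which insulin signalling of the donor cells was altered according to the design. By the study's account the exosomes were collected 9 h after palmitate had been taken away, and the recipient cells were not themselves given palmitate. No genetic change of the cells is named for either group. The labels give the recipient cells as myoblasts and the paper gives them as myotubes. All 7 source names are C2C12, while the cell line entries of the labels count upwards from one sample to the next. The arrays are labelled biological replicates. As all came from 1 cell line, the spread between them is the spread between cultures and not between animals.

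Each array was a 1-colour Agilent mouse array hybridised with cRNA from 0.1 µg of total RNA. Values are log2 of the processed signal relative to the 75th percentile of the same array, so that 0 is the 75th percentile and a step of 1 is a doubling of signal. The signal at that percentile was between 549.4 and 1621, and between 48.3 and 70.3% of the probes stood well above the local background in the judgement of the scanner software. Hybridisation used 4 slides. EXO-Post Palm replicate 1 shared slide 1 with EXO-Post BSA replicates 1 and 2, and EXO-Post Palm replicate 3 shared slide 3 with EXO-Post BSA replicate 4. Each remaining array was alone on its slide. EXO-Post BSA replicate 3 was read by another version of the scanner software than the other arrays. Of 15 markers of differentiated muscle, 14 were well above background on all 7 arrays, and none of the 15 passed an adjusted p of 0.05. With EXO-Post Palm 13 of the 15 had a lower fitted value and 2 a higher one, where 52.7% of all tested probes were lower. The groups did not overlap for 4 of the 15, beside 11.2% of all tested probes with a value on every array. The summed linear signal of these markers was 785 to 976 times the 75th percentile with EXO-Post BSA and 709 to 822 times with EXO-Post Palm. Markers of dividing cells differed between the groups. Of 10 such markers, 9 were tested and 5 were higher with EXO-Post Palm at an adjusted p under 0.05, with a summed signal of 4.90 to 11.8 against 21.3 to 28.6. For myoblast markers the sums were 37.0 to 48.8 with EXO-Post BSA and 33.4 to 52.2 with EXO-Post Palm, and for fibroblast markers 118 to 192 and 129 to 154. Sums were 7.89 to 18.1 and 6.0 to 7.66 for macrophage markers, of which 4 of 7 were tested. They were 0.407 to 0.515 and 0.693 to 1.33 for adipocyte markers, of which 2 of 7 were tested. No gene of these 4 lists passed an adjusted p of 0.05. A linear sum follows its brightest markers and need not give the direction of most of them. Of the 4 tested macrophage markers, 3 had a higher mean log2 signal with EXO-Post Palm and 1 a lower one, Itgam (log2 fold change -1.63). Of the 2 tested adipocyte markers, 1 was higher and 1 lower. Of the 6 tested fibroblast markers 4 were higher and 2 lower, and of the 7 tested myoblast markers 3 were higher and 4 lower. Among the markers, Aurkb of dividing cells, Myf5 of myoblasts, Tcf21 of fibroblasts and Lyz2 of macrophages were well above background on no array. The part that these differences have in the values below was not tested. In RNA from whole cultures, fewer cells of a type and less RNA per cell cannot be told apart.

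Insulin binds its receptor, a tyrosine kinase encoded by Insr, which phosphorylates the docking proteins IRS1 and IRS2. These recruit the lipid kinase PI3K, made of a regulatory subunit (Pik3r1) and a catalytic subunit (Pik3ca), whose product brings the kinases AKT1 and AKT2 to the plasma membrane. AKT then inactivates GSK3B, a brake on glycogen synthesis, keeps the transcription factor FOXO1 out of the nucleus and phosphorylates TBC1D4, which otherwise holds vesicles of the glucose transporter GLUT4 inside the cell. Much of this control lies in phosphorylation, which an array of transcripts does not measure.

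The probes are 60 bases long, and the 5 shown here were chosen because they read coding sequence of the steps named above. They are the probes nearest the start of the transcript for Irs2 (mm9 chr8:11004490-11004549, minus strand), Pik3ca (chr3:32360630-32360689, plus strand), Akt2 (chr7:28418226-28418285, plus strand), Gsk3b (chr16:38187987-38191632, plus strand, with 3586 bases of intron within that span) and Tbc1d4 (chr14:101878355-101878414, minus strand). In the Pik3ca and Gsk3b probes, capitals mark GANTTNGGN. This pattern covers the codons of the metal-binding motif shared by kinases, and also some codons of other amino acids. It was searched on the probe strand in frames without a stop. It was found in that way in 0.586% of all 60-base probes of the array. In the Tbc1d4 probe, capitals mark 18 bases that encode the recognition motif of AKT, an arginine-rich stretch ending in serine, which 0.685% of all probes hold in a frame without a stop. A match is a description of the letters only.
Irs2: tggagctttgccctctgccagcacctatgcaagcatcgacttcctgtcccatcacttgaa
Pik3ca: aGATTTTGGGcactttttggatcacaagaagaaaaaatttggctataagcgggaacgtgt
Akt2: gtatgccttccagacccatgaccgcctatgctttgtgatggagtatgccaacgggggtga
Gsk3b: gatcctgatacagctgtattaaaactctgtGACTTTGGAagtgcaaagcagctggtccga
Tbc1d4: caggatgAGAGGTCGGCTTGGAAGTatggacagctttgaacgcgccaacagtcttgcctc

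The probes of the 10 genes were ordinary in base composition, with a GC content of 35 to 55% and a median of 41.7%, as for all 60-base probes. The polyadenylation signal AATAAA, searched on the probe strand, stood in 4 of the 19 probes (21.1%) and in 12.6% of all 60-base probes. The pair of Akt2 probes near the end of the transcript, at positions 3095 and 3102, share 53 bases and read the same stretch, so they are not independent. Probes of 1 gene are told apart below by their position in bases along the transcript. A probe's level was not set against that of another probe.

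Of the 19 probes, 18 passed the filter on dim probes (in at least 1 group, 75% or more of the arrays had to be well above background) and 17 were well above background on all 7 arrays. None of the 18 passed a limma adjusted p of 0.05, beside 115 of all 21589 tested probes (0.533%). Without adjustment 1 of the 18 had a limma p under 0.05, that of Pik3ca, beside 10.0% of all tested probes. The adjusted p-values ranged from 0.461 to 0.990. Fitted log2 fold changes (EXO-Post Palm minus EXO-Post BSA) ran from -0.84 for Irs2 to 0.66 for Akt2 at position 1052. They were below 0 for 11 probes and above 0 for 7, with 52.7% of all tested probes below 0, and their median was -0.16 beside -0.02 for all tested probes. The median size of the fold change without regard to sign was 0.34 on the log2 scale for these probes and 0.25 for all. The standard errors were 0.20 to 0.47. The 95% interval held 0 for 17 of the 18 probes, and for 10 probes it lay wholly between -1 and 1, so that a halving or a doubling was outside the interval for those 10. For the other 8 probes the interval reached past -1 or past 1. Each interval is for 1 probe alone. In simulated data 89 of 100 such intervals held a true log2 change of size 1.

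**Figure D1:**
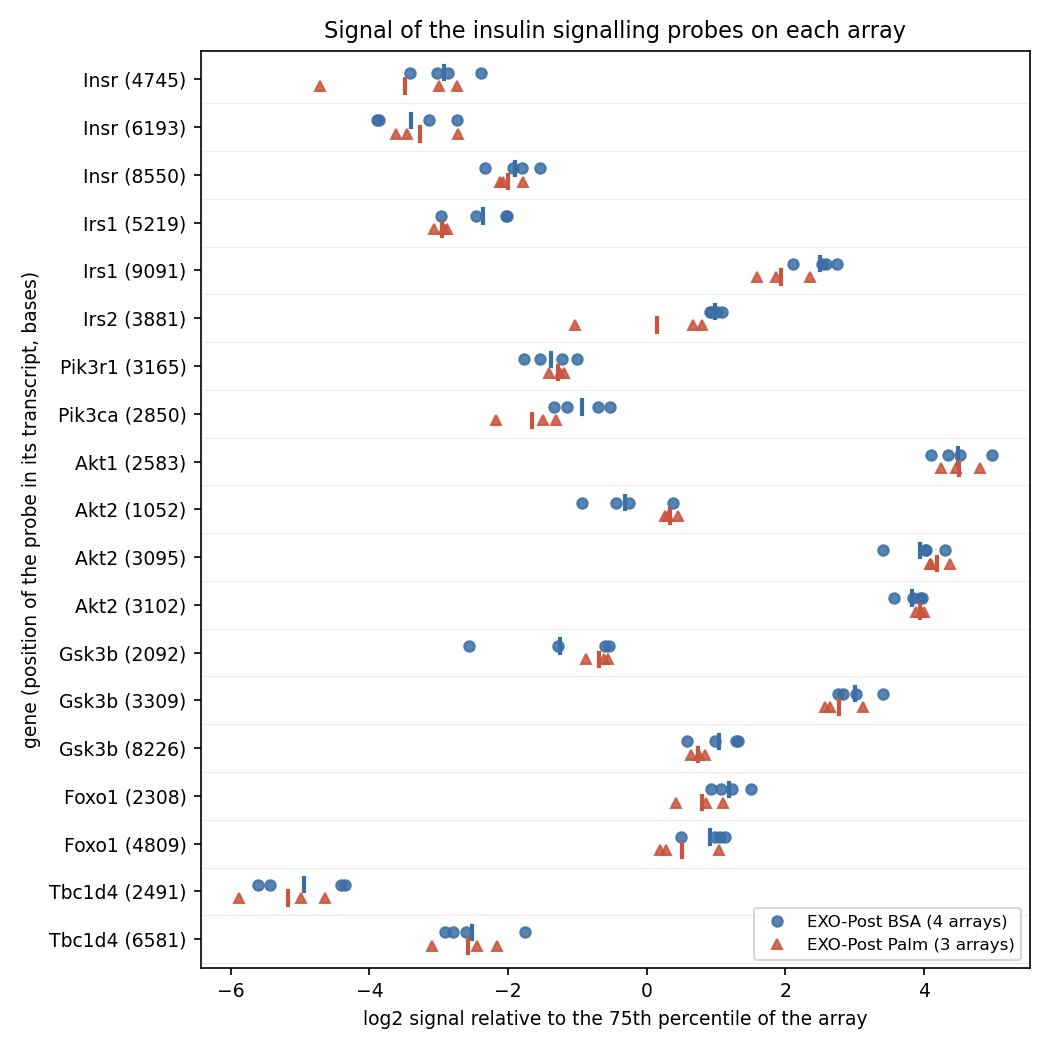
Log2 signal relative to the 75th percentile of the array (horizontal axis) for the 19 probes of the 10 genes (vertical axis, with the position of the probe in its transcript). Circles are the 4 EXO-Post BSA arrays, triangles are the 3 EXO-Post Palm arrays and short bars are group means. The groups overlap for every probe but that of Irs2, where EXO-Post Palm replicate 2 lies far below the other arrays at -1.04.

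The receptor was read by 3 probes, which gave no common direction. The Insr probe at position 8550 (chr8:3151667-3151726) measured -1.80, -1.93, -1.54 and -2.33 in the EXO-Post BSA replicates 1 to 4 and -1.79, -2.08 and -2.11 in the EXO-Post Palm replicates 1 to 3. All EXO-Post Palm values lay inside the range of EXO-Post BSA. The log2 fold change was -0.09 ± 0.24 (SE, n = 4 and 3, limma adjusted p = 0.924), with a 95% interval of -0.64 to 0.45. The Insr probe at position 6193 (chr8:3154024-3154083) ranged from -3.88 to -2.73 with EXO-Post BSA and from -3.62 to -2.72 with EXO-Post Palm, a fold change of 0.14 ± 0.36 on the log2 scale (adjusted p = 0.926 by limma). At position 4745 (chr8:3155472-3155531) the difference was -0.56 ± 0.47 (limma adjusted p = 0.735), and it came from 1 array. EXO-Post Palm replicate 3 measured -4.71 there and was not well above background, while the other EXO-Post Palm arrays measured -2.74 and -2.99, inside the EXO-Post BSA range of -3.41 to -2.39. Without that replicate the difference was 0.06.

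The docking proteins were lower in the means of the EXO-Post Palm group for all 3 of their probes, without passing the test. Irs1 is a main carrier of the insulin signal in muscle. Its probe at position 9091 (chr1:82229692-82229751) measured 2.59, 2.53, 2.11 and 2.74 with EXO-Post BSA and 1.87, 2.36 and 1.60 with EXO-Post Palm. EXO-Post Palm replicates 1 and 3 lay below all EXO-Post BSA arrays, and replicate 2 lay between EXO-Post BSA replicate 3 and the rest. The fold change was -0.55 ± 0.26 on the log2 scale, or 0.68 times on the linear scale (limma adjusted p = 0.518). With a block on slide the value was -0.89 (limma adjusted p = 0.318), and it was -0.70 within slide 1 and -1.14 within slide 3. The Irs1 probe at position 5219 (chr1:82233564-82233623) measured -2.96, -2.03, -2.46 and -2.01 with EXO-Post BSA and -2.92, -2.88 and -3.06 with EXO-Post Palm. The 3 EXO-Post Palm arrays lay close together, at the level of EXO-Post BSA replicate 1 and below the other EXO-Post BSA arrays. The difference was -0.59 ± 0.27 (limma adjusted p = 0.517), -0.43 within slide 1 and -1.05 within slide 3. Both Irs1 differences were smaller when several steps of the processing were changed at once. The values were -0.26 and -0.19 at positions 5219 and 9091 with the median signal after normexp and quantile normalisation. They were -0.30 and -0.19 with local background subtracted and quantile normalisation, and -0.29 and -0.21 in the authors' processed values.

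Irs2, the other main docking protein and a known target of FOXO factors, was read by 1 probe that ends close to the stop of the coding sequence, shown above. It measured 0.93, 0.91, 1.08 and 1.01 with EXO-Post BSA and 0.67, -1.04 and 0.80 with EXO-Post Palm. This was the only one of the 18 probes whose groups did not overlap, as for 11.2% of all tested probes with a value on every array (5.79% with EXO-Post Palm lower). The 4 EXO-Post BSA arrays spanned a narrow range, 2 EXO-Post Palm arrays lay just under it and EXO-Post Palm replicate 2 lay far under it. The fold change was -0.84 ± 0.42 on the log2 scale, or 0.56 times on the linear scale, with a 95% interval of -1.79 to 0.11 (limma adjusted p = 0.555). The exact permutation test on this single probe gave a two-sided p of 0.0286, the smallest that 35 splits of 7 arrays can give. A p that small needs groups that do not overlap, so it repeats that trait, and it is not adjusted over the probes. Most of the size came from 1 array, as the difference was -0.25 without EXO-Post Palm replicate 2 (limma adjusted p = 0.772) and -0.23 with slide as a block, where that array is alone on its slide and carries no weight.

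The subunits of PI3K gave values of different sign. Pik3ca encodes the catalytic subunit p110 alpha, and its probe reads the kinase domain shown above. It measured -0.69, -1.33, -1.15 and -0.53 with EXO-Post BSA and -1.31, -1.50 and -2.17 with EXO-Post Palm. All 3 EXO-Post Palm arrays lay below every EXO-Post BSA array but replicate 2, which was at the level of EXO-Post Palm replicate 1. The fold change was -0.73 ± 0.30 on the log2 scale, or 0.60 times on the linear scale, with a 95% interval of -1.40 to -0.06. It had the lowest p-value of the 18 probes, 0.0361 by limma before adjustment and 0.461 after it. The exact two-sided permutation p was 0.0857. Within slide 1 the difference was -0.30 and within slide 3 it was -1.64. With the median signal after normexp it was -0.25, and in the authors' processed values it was -0.31. Pik3r1 encodes the regulatory subunit p85 alpha, which holds the catalytic subunit and binds the docking proteins. Its probe (chr13:102454406-102454465, minus strand) measured -1.53, -1.77, -1.22 and -1.01 with EXO-Post BSA and -1.25, -1.41 and -1.19 with EXO-Post Palm. The EXO-Post Palm values all lay inside the EXO-Post BSA range, and the fold change was 0.10 ± 0.24 on the log2 scale (limma adjusted p = 0.919).

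The kinase AKT was a readout of the study, as protein by western blot, to ask whether exosomes alter insulin signalling in the cells that receive them. The paper reports more total AKT protein with EXO-Post Palm and no significant effect on its insulin-stimulated phosphorylation. Transcript values are another measure and were not set against that protein. Transcripts of Akt1, the form tied to growth, did not pass the test. Its probe (chr12:113892079-113892138, minus strand) measured 4.10, 4.35, 4.53 and 4.98 with EXO-Post BSA and 4.25, 4.81 and 4.46 with EXO-Post Palm. The values of the groups were interleaved. The fold change was 0.02 ± 0.26 on the log2 scale, or 1.01 times on the linear scale, and its 95% interval of -0.59 to 0.62 did not hold a doubling (limma adjusted p = 0.990). With slide as a block the value was -0.21. A p above the threshold does not show that the groups were alike, and the interval gives the sizes that these arrays allow.

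Akt2, the form most tied to glucose uptake, had 3 probes, all with a fitted value above 0. The probe at position 1052, which reads the kinase domain shown above, measured -0.93, -0.25, -0.45 and 0.38 with EXO-Post BSA and 0.27, 0.46 and 0.31 with EXO-Post Palm. The EXO-Post Palm arrays lay close together and above all EXO-Post BSA arrays but replicate 4. The fold change was 0.66 ± 0.30 on the log2 scale, or 1.58 times on the linear scale, with a 95% interval of -0.03 to 1.34 (limma adjusted p = 0.517). It was 0.86 within slide 1 and -0.07 within slide 3, where EXO-Post BSA replicate 4 is the comparison. The probes at the end of the transcript gave smaller values. At position 3095 (chr7:28424405-28424464) the range was 3.41 to 4.31 with EXO-Post BSA and 4.09 to 4.38 with EXO-Post Palm, a difference of 0.25 ± 0.25 (adjusted p = 0.777 by limma). At position 3102 (chr7:28424412-28424471) it was 3.57 to 3.97 and 3.88 to 4.00, a difference of 0.11 ± 0.20 (limma adjusted p = 0.882). The interval at position 3102 ran from -0.33 to 0.56, so a doubling of Akt2 signal lay outside it. There the sign depended on the processing, with -0.20 in the authors' processed values.

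**Figure D2:**
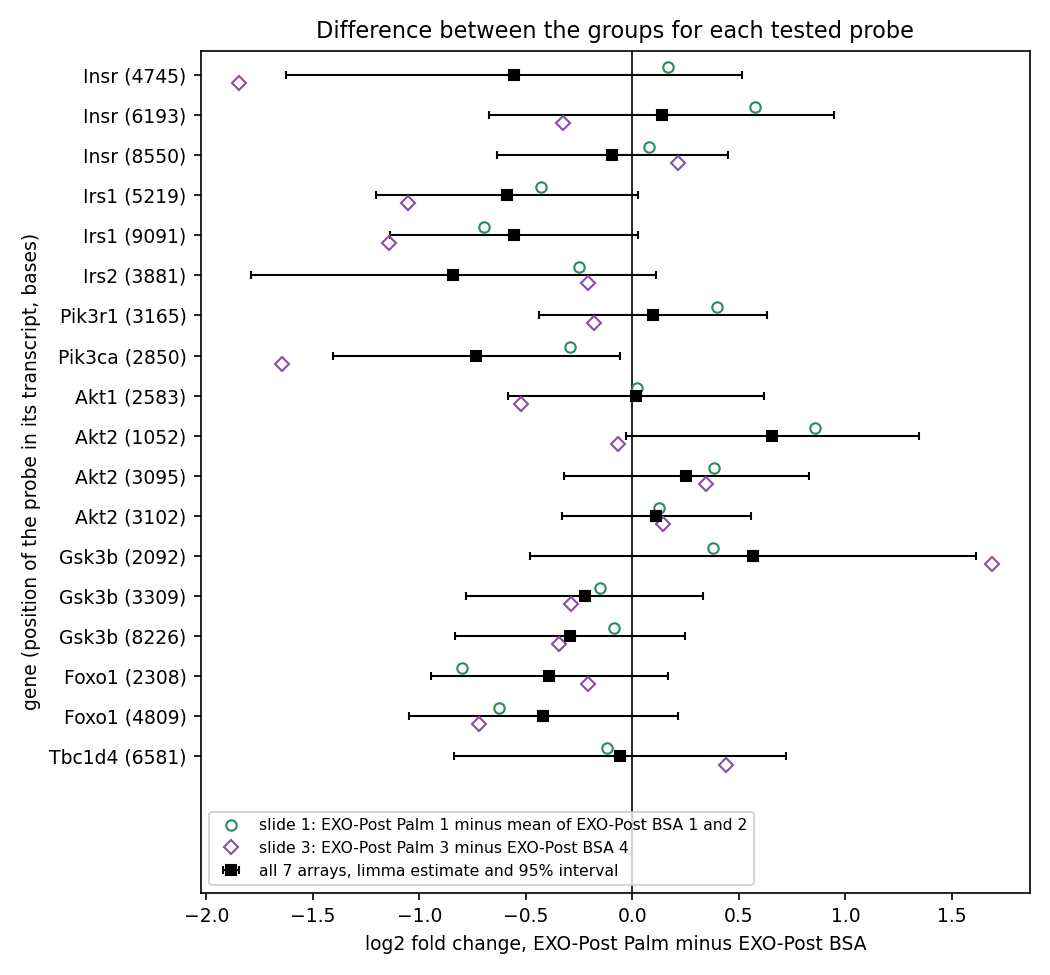
Log2 fold change, EXO-Post Palm minus EXO-Post BSA (horizontal axis), for the 18 tested probes (vertical axis). Squares with bars are the limma estimates over all 7 arrays with 95% intervals, open circles are differences within slide 1 and open diamonds are differences within slide 3. The interval of Pik3ca is the only one that leaves out 0, and both slides gave a negative difference for all probes of Irs1, Irs2, Pik3ca and Foxo1.

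Gsk3b encodes the kinase that restrains glycogen synthase until AKT phosphorylates it, and its 3 probes did not move together. The probe at position 3309 (chr16:38241177-38241236) measured 2.75, 2.84, 3.02 and 3.41 with EXO-Post BSA and 2.64, 2.57 and 3.12 with EXO-Post Palm, a fold change of -0.22 ± 0.25 on the log2 scale (limma adjusted p = 0.797). At position 8226 (chr16:38246094-38246153) the values were 0.58 to 1.32 and 0.64 to 0.85, a difference of -0.29 ± 0.24 (adjusted p = 0.720 by limma). The probe across the exon junction at position 2092, shown above, measured -1.27, -0.61, -0.54 and -2.56 with EXO-Post BSA and -0.56, -0.61 and -0.87 with EXO-Post Palm. The EXO-Post Palm arrays lay at the level of the 2 highest EXO-Post BSA arrays, and EXO-Post BSA replicate 4 lay far below. The difference was 0.56 ± 0.46 (limma adjusted p = 0.721). It was 0.13 without EXO-Post BSA replicate 4, and 0.94 with slide as a block, where limma gave a p of 0.0457 before and 0.505 after adjustment.

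Foxo1 encodes the transcription factor that insulin keeps out of the nucleus and that drives genes of fasting and atrophy in muscle. The probe at position 2308 (chr3:52150183-52150242) measured 1.51, 0.93, 1.24 and 1.07 with EXO-Post BSA and 0.42, 1.11 and 0.86 with EXO-Post Palm. The probe at position 4809 (chr3:52153289-52153348) measured 1.14, 0.50, 1.06 and 0.99 with EXO-Post BSA and 0.19, 1.04 and 0.27 with EXO-Post Palm. On both probes EXO-Post Palm replicates 1 and 3 lay below all EXO-Post BSA arrays, and EXO-Post Palm replicate 2 lay among them. The fold changes were -0.39 ± 0.24 and -0.42 ± 0.28 on the log2 scale (limma adjusted p = 0.641 and 0.659). Within slide 1 they were -0.80 and -0.62, and within slide 3 they were -0.21 and -0.72. At position 2308 the difference was 0.02 in the authors' processed values.

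Tbc1d4 encodes the Rab GTPase-activating protein, also called AS160, that AKT phosphorylates to release GLUT4 vesicles. The probe that reads the AKT motif, at position 2491, was well above background on 2 of 4 EXO-Post BSA arrays and 1 of 3 EXO-Post Palm arrays and was therefore not tested. It measured -5.61, -4.35, -4.41 and -5.43 with EXO-Post BSA and -4.64, -5.88 and -4.98 with EXO-Post Palm, and the groups overlapped. The probe at position 6581 (chr14:101841577-101841636), well above background on all arrays, measured -1.75, -2.91, -2.79 and -2.60 with EXO-Post BSA and -2.45, -3.10 and -2.16 with EXO-Post Palm. The difference was -0.06 ± 0.34 (limma adjusted p = 0.970), with a 95% interval of -0.83 to 0.72.

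Differences within a slide do not involve the step from slide to slide. Of the 18 probes, 8 were lower with EXO-Post Palm in both slide 1 and slide 3, 4 were higher in both and 6 had opposite signs. These counts of signs were not set beside those of all tested probes. With slide as a block, 10 probes were below 0 and the lowest adjusted p by limma was 0.318. Before adjustment 2 of the 18 probes had a limma p under 0.05, those of Irs1 at position 9091 and Gsk3b at position 2092. In the same fit 2095 of all 21589 tested probes had such a p. Each slide comparison rests on 1 EXO-Post Palm array and gives no error of its own.

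The rest of the pathway was described with 6 lists of genes, each gene by its brightest probe. These lists too were chosen with earlier results of these data known. Of 88 listed genes 87 were on the array and 79 were tested, and none passed an adjusted p of 0.05. Without adjustment 14 genes had a limma p under 0.05, which is 17.7% of the 79 beside 10.0% of all tested probes. With EXO-Post Palm 1 of the 14 was higher and 13 were lower, where 4.85 and 5.19% of all tested probes were higher and lower at that p. These shares are not over like probes, as they also cover dimmer probes of the same genes. In the fit held to probes well above background on all arrays, 2034 of 17276 had a limma p under 0.05 before adjustment. Fitted values were below 0 for 48 genes (60.8%) and the median was -0.14.

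Among the 12 tested genes that act at the receptor and its adaptors, 6 were above and 6 below 0. The extremes were Igf1r, which encodes the receptor of insulin-like growth factor (0.44 ± 0.26 on the log2 scale, limma adjusted p = 0.624), and Grb2, the adaptor towards RAS (-0.62 ± 0.20, limma adjusted p = 0.345). The 7 tested genes of PI3K and PDK1 had a median of 0.03 and lay between Pik3r2 (-0.42) and Pik3r4 (0.37). Of the 17 inhibitors and phosphatases, Trib1, a pseudokinase, had the highest value (0.81 ± 0.37, limma adjusted p = 0.515). None of these 17 had a limma p under 0.05 before adjustment. Below AKT, the 17 genes of the mTOR branch ran from Mapkap1, a subunit of the complex that phosphorylates AKT (-1.34 ± 0.80), to Akt1s1, the mTOR inhibitor PRAS40 (0.71 ± 0.34), with a median of -0.14. The Mapkap1 value rested on 1 array and was -0.14 without EXO-Post Palm replicate 3. The 8 tested genes of the GSK3, FOXO and glycogen branch had a median of -0.16, with Ppp1r3c, which targets a phosphatase to glycogen, at 0.84 ± 0.24 (limma adjusted p = 0.246) and Pygm, muscle glycogen phosphorylase, at -0.59 ± 0.18 (limma adjusted p = 0.298).

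The list of GLUT4 traffic had the lowest median of the 6, -0.21, with 13 of 18 tested genes below 0. Of these 18 genes, each read by its brightest probe, 6 had a limma p under 0.05 before adjustment, all with EXO-Post Palm lower. In that direction the share was 5.19% of all tested probes, dimmer ones included. Snap23 encodes a membrane fusion protein of the cell surface, and its values were -1.23 ± 0.24 on the log2 scale, with non-overlapping groups (limma adjusted p = 0.0841). It passed the threshold under 2 of the alternatives, at 0.0373 when the test was held to probes well above background on all arrays and at 0.0312 with trended and robust variances. Slc2a4, which encodes GLUT4 itself, was -0.85 ± 0.19 (limma adjusted p = 0.133), also with groups that did not overlap. The highest value of the list was that of Rab13, a small GTPase (0.51 ± 0.29, limma adjusted p = 0.612).

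Genes that FOXO factors drive were read as a further list, since Foxo1 lies in the pathway. The list includes Irs2 and Insr. Of 24 listed genes 21 were tested, 8 above and 13 below 0, with a median of -0.17. None passed the adjusted threshold, and before adjustment 1 gene was higher and 2 were lower at a limma p under 0.05. Of all tested probes 4.85% were higher and 5.19% lower at that p. The lowest value was that of Cat, which encodes catalase (-0.94 ± 0.21, limma adjusted p = 0.133), and the highest was that of Sesn3, a sestrin (0.72 ± 0.35, limma adjusted p = 0.542).

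**Figure D3:**
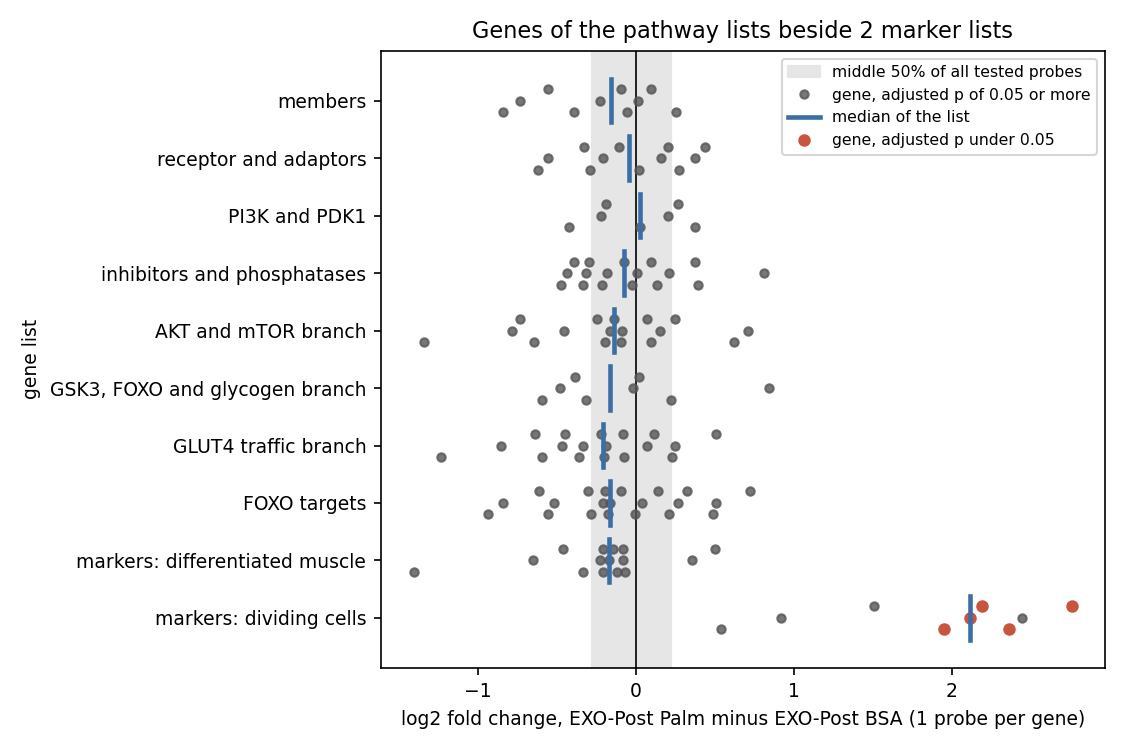
Log2 fold change, EXO-Post Palm minus EXO-Post BSA (horizontal axis), of each tested gene by its brightest probe, for the 10 genes described above (members), the pathway lists, the FOXO targets and 2 marker lists (vertical axis). Blue bars are list medians, the grey band runs from -0.28 to 0.22 and holds the middle 50% of all tested probes, and red points passed an adjusted p of 0.05, which 5 markers of dividing cells did and no gene of the other lists shown.

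Across 22 other ways of processing, modelling or leaving out an array, an adjusted p under 0.05 was reached by no probe of the 10 genes, and the lowest adjusted p among them was 0.293, for Akt2 at position 1052 without EXO-Post BSA replicate 4. Before adjustment, which probes had a p under 0.05 changed with the setting. Pik3ca was among them in 12 of the 22 settings, Akt2 at position 1052 in 8, Irs1 at position 9091 in 7, Irs2 in 5, Irs1 at position 5219 and Foxo1 at position 4809 in 4 each and Gsk3b at position 2092 in 1. The sign of the fold change was the same in every setting for both Irs1 probes, Irs2, Pik3ca, Akt2 at positions 1052 and 3095, Gsk3b at positions 2092 and 8226 and Foxo1 at position 4809.

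**Figure D4:**
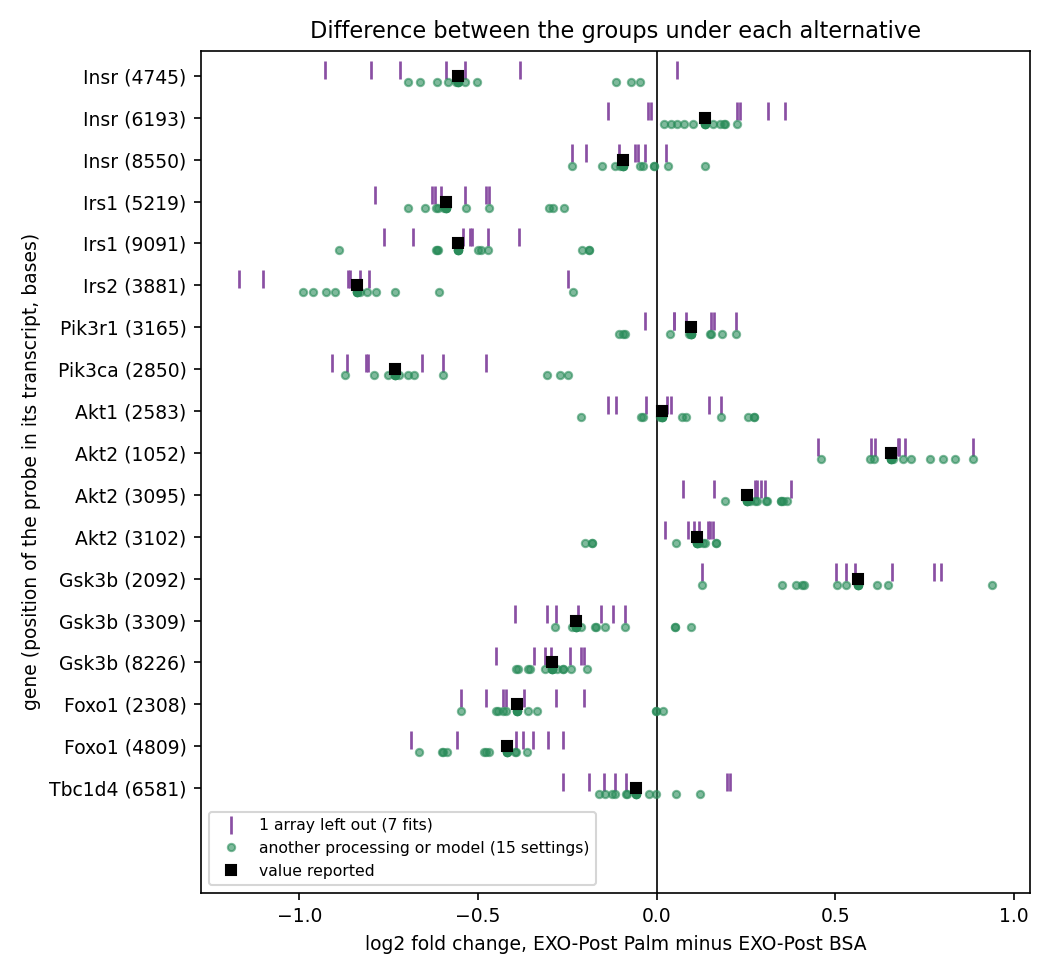
Log2 fold change, EXO-Post Palm minus EXO-Post BSA (horizontal axis), of the 18 tested probes (vertical axis) as reported (squares), with 1 of the 7 arrays left out (vertical ticks) and under 15 other settings (circles). Irs1, Irs2 and Pik3ca stay below 0 and Akt2 at position 1052 stays above 0 throughout, while Akt1 falls on both sides of 0.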

How the data were processed

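RNA of C2C12 cells incubated with EXO-Post BSA (4 arrays) or EXO-Post Palm (3 arrays) was measured on 1-colour Agilent arrays. The authors deposited 1 scanner file per array, in which the processed signal is an intensity with background subtracted but not yet normalised across arrays. They also deposited log2 values that they had normalised, used here as an alternative. Per the labels, Agilent Feature Extraction 9.1 and limma were used, while the file headers give versions 10.7.3.1 and, for EXO-Post BSA replicate 3, 11.5.1.1. The deposited files also hold other columns, such as spot flags, gene names and probe positions on mm9. That replicate's file has no gene names, which were taken by probe name.

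Control spots and spots flagged as outliers were left out, spots of 1 probe were averaged, and log2 of the intensity minus the 75th percentile of 43020 non-control spots was used. No spot was saturated. The 21589 probes for which 75% or more of the arrays in either group were well above background entered a model on condition alone (limma 3.58.1, R 4.3.3), with 2-sided p-values adjusted by Benjamini-Hochberg over all of them. Intervals are at 95%. The number of arrays limits the precision. Tested on simulated data with 21137 probes, the model recovered 70 of 100 log2 changes of 2 and 13 of 100 of size 1, with 6 false among 89 calls. The 95% intervals held the true change for 96 of the 100 of size 2 and for 89 of the 100 of size 1. The 10 genes and all lists were chosen with earlier results of these data known. Every probe of the 10 genes is named, and of each other list the gene with the largest rise and fall, any gene past the threshold, Slc2a4 and Igf1r. A gene that this rule also covers is not reported by name. RefSeq (GRCm38.p6) gave the same symbol for the transcripts of all 10 genes. Figures were drawn with matplotlib 3.10.9.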

Additional observations from a re-analysis of the deposited data

How the results depend on the processing

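Nothing among the 10 genes passed an adjusted p of 0.05 in any of the 22 alternatives, 2 of which were chosen after seeing the data, because 1 file lacks the mean signal and the planned normexp and subtraction on it were not run. They used the median signal. Over all probes 115 passed. The count was 0 with no probe filter (1900 with an unadjusted p under 0.05). It was also 0 with an ordinary t-test and Benjamini-Hochberg adjustment (2108 with an unadjusted p under 0.05). The paper names a t-test for comparing means in general and limma for its arrays. Counts were 181 with slide as a random block, 173 with trended and robust variances and 2169 with no adjustment. With 1 array left out they were 4 to 228 (7 without EXO-Post Palm replicate 1, 228 without replicate 2 and 4 without replicate 3). With no adjustment 1 probe of the 10 genes and 14 pathway genes passed. Snap23 was the 1 pathway gene that passed both with probes well above background on all arrays and with trended and robust variances.

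Samples with the same replicate number were not paired by design, and their deviations from the group means correlated at 0.12, -0.15 and -0.15 for numbers 1 to 3. With a block on replicate number 0 probes passed (1933 with an unadjusted p under 0.05).

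Signs turned for 9 of the 18 probes, and each turned value had a limma adjusted p above 0.8 in its own setting. In the main fit some of these probes had a lower limma adjusted p. They were Foxo1 at position 2308 (0.641), Insr at position 4745 (0.735) and Gsk3b at position 3309 (0.797). In the authors' processed values the log2 fold changes were 0.032 (Insr at position 8550), -0.10 (Pik3r1), -0.20 (Akt2 at 3102), 0.10 (Gsk3b at 3309) and 0.019 (Foxo1 at 2308). With normexp on the median signal they were -0.088 (Pik3r1), -0.18 (Akt2 at 3102) and 0.051 (Gsk3b at 3309), and with local background subtracted they were -0.095, -0.18 and 0.051. With slide as a block they were 0.14 (Insr at 8550), -0.21 (Akt1) and 0.12 (Tbc1d4 at 6581). Akt1 was -0.038 with slide as a random block and -0.043 with the array median subtracted, and Tbc1d4 was 0.055 with array weights. With 1 array left out the ranges were -0.93 to 0.058 (Insr at 4745), -0.14 to 0.36 (Insr at 6193), -0.24 to 0.025 (Insr at 8550), -0.031 to 0.22 (Pik3r1), -0.14 to 0.18 (Akt1) and -0.26 to 0.21 (Tbc1d4 at 6581). The causes were not tested. Of the genes named by the rule above from the pathway lists and the FOXO targets, none turned sign in any alternative. The cell type markers and the genes named under other observations below were not followed through the alternatives.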

Other observations

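Some close relatives of the 10 genes, singled out after their values were seen, were measured as well. Gsk3a, the other GSK3 kinase, was -0.48 ± 0.20 on the log2 scale with groups that did not overlap (limma adjusted p = 0.485). Pik3cb, which encodes another catalytic subunit of PI3K, was -0.22 ± 0.23, and the regulatory subunit gene Pik3r3 was 0.20 ± 0.27. Tbc1d1, the relative of Tbc1d4, was -0.59 ± 0.25 (limma adjusted p = 0.484) from the 6 arrays where its spot was not flagged. The probes of Foxo3 and Foxo4 were too dim to be tested, with Foxo4 well above background on 0 arrays, while Foxo6 was -0.31 ± 0.25 (limma adjusted p = 0.714).

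Of the 17 tested genes of the AKT and mTOR branch, 3 had a limma p under 0.05 before adjustment. Of all tested probes 10.0% had such a p, and 5.19% were lower at it. The 3 genes are named here because of their values. All had a negative fitted value, in a list with 6 genes above 0, 11 below 0 and a median of -0.14. Rps6, a ribosomal protein and target of S6 kinase, was -0.78 ± 0.22 (limma adjusted p = 0.238). Eif4ebp2, which binds and restrains the cap-binding factor, was -0.73 ± 0.20 (adjusted p = 0.243 by limma). Rictor, the defining subunit of the complex that phosphorylates AKT, was -0.64 ± 0.24 (limma adjusted p = 0.417).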
